A study of Zea mays with 8 samples.

Results

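Of the 43110 loci measured in the growing maize leaf, 38 were expressed in the elongation zone and nearly silent in the division zone. They were chosen by their measured values: at least 5 FPKM (fragments per transcript length and sequencing depth, so that levels can be compared between loci) in all 4 elongation zone libraries and below 0.5 FPKM in all 4 division zone libraries. The RNA came from leaf 6 of hydroponically grown plants of the inbred line B73. Its 4 groups were the elongation zone at low nitrogen (LN, 0.04 mM), the elongation zone at high nitrogen (HN, 4 mM), the division zone at LN and the division zone at HN. Each group had 2 libraries, which the series describes as biological replicates. The study concerns slower leaf growth under nitrogen shortage and a possible role of the hormone gibberellin. Plant age, the length of each zone and the number of plants per library were not given in the labels, and a p value here measures only the spread between these libraries.

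A grass leaf grows from its base. Cells divide in the lowest stretch, are pushed upward, stop dividing and lengthen in the stretch above, taking up water into the vacuole while enzymes and expansins loosen the wall. Aquaporins, expansins and wall-modifying enzymes are known for high expression in lengthening cells, and cyclins and replication proteins for high expression in dividing ones. In bulk tissue, fewer cells of a type and less RNA per cell cannot be told apart.

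The zone labels were checked against marker genes. All 6 markers of dividing cells, among them the cyclin cyc3 and the replicative helicase subunits MCM6 and MCM7, were lower in every elongation library than in every division library. All 6 markers of lengthening cells, among them the aquaporins PIP2-3, PIP2-4 and TIP2-1 and the beta-expansin expB6, were higher in every elongation library. So were the 5 measured loci that mark mature blade, such as PEPC1 of C4 photosynthesis. Of 9 measured loci that mark lignifying vessel cells, 4 were higher in every elongation library, and both loci of the secondary wall cellulose synthase CesA11 were at or near 0 throughout. The HN elongation libraries were the least alike of the 4 pairs, with a median SD between replicates of 0.27 on the log2 scale, against 0.10 in the LN elongation, 0.15 in the LN division and 0.12 in the HN division libraries. HN elongation replicate 2 also had the largest column total, 1113553 FPKM, with the other totals between 652957 and 852561 FPKM.

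The rule is a strict one. Among the 12300 loci that reached 5 FPKM in all 4 elongation libraries, the 38 made up 0.309%, and the other 12262 had at least 0.5 FPKM in some division library. The mirror rule, at least 5 FPKM in the division and below 0.5 FPKM in the elongation libraries, held 10 loci. At the lower edge, AC206030.4_FG001 (XLOC_004936) entered with a lowest elongation value of 5.001 FPKM, while GRMZM2G036826 stayed out at 4.98 FPKM. At the upper edge, GRMZM2G319057 entered with a highest division value of 0.497 FPKM, while GRMZM2G069325 stayed out at 0.542 FPKM.

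Few of the 38 loci have a name. A RefSeq gene table of a later maize assembly matched 17 of them by identifier, or 44.7%, all listed as protein coding. The share was 75.8% among the other loci that reached 5 FPKM in all elongation libraries and 61.5% among the 24706 loci tested. Only GRMZM2G171934 carried an informative name, PLTZ11, which belongs to the PLATZ family of plant zinc-dependent DNA-binding proteins. An informative name was present for 11.3% of the other loci at the same floor. Since the other 37 have no informative name, they could not be sorted by role. Another 3 loci, XLOC_019263, XLOC_019224 and XLOC_006330, have no gene identifier at all.

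The loci lay on all 10 chromosomes of B73 RefGen_v3, with 7 on chromosome 1, 6 on chromosome 4, 5 each on chromosomes 3 and 8, and 1 to 4 on each of the others. Their median span was 2259.5 bp, against 3907.5 bp over all loci tested, and ran from 209 to 92338 bp. A span overlap with another locus was present at 7 of 38 (18.4%), against 13.7% of all loci tested. GRMZM2G341058 and GRMZM2G341083 are both among the 38 and share 1 span, chromosome 4 from 71238732 to 71243440. GRMZM5G873870 was split by the assembly into XLOC_036349, which is among the 38, and XLOC_038187 on the same span, which is not: the second had 1.05 to 1.51 FPKM in the division libraries. The sources used here do not say that strand was used in counting, so reads of overlapping loci may not be told apart. Apart from the pair with 1 span, the closest members were 1.13 Mb apart.

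Levels in the elongation zone were moderate. The mean over the 4 elongation libraries had a median of 10.7 FPKM among the 38, against 20.3 FPKM among the other loci at the same floor. It lay between 5 and 10 FPKM for 16 loci, between 10 and 20 for 14, between 20 and 50 for 5 and above 50 for 3. The 3 highest were XLOC_019263, GRMZM2G077015 and GRMZM2G417107, and the lowest mean was 5.63 FPKM, at GRMZM2G089119.

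**Figure D1:**
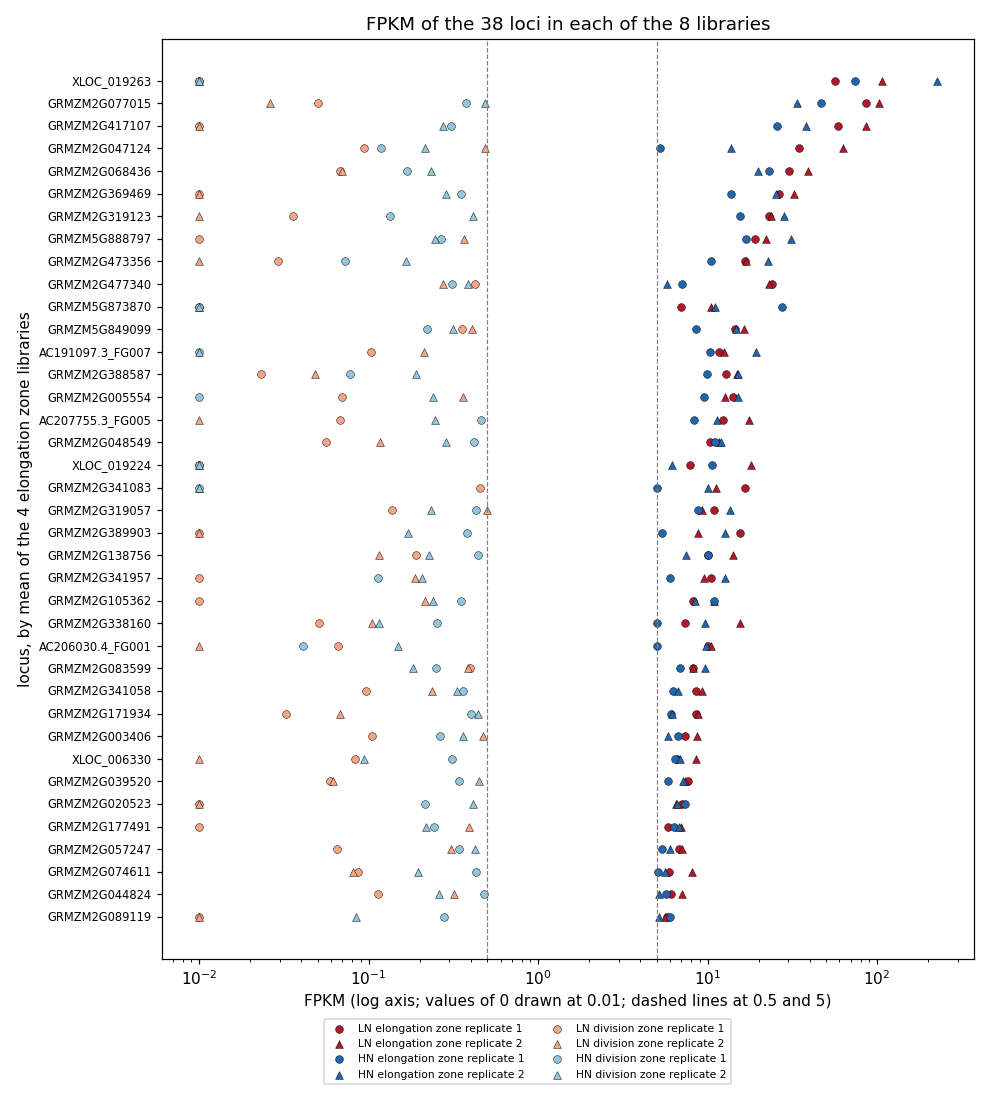
FPKM of the 38 loci in each of the 8 libraries on a log axis, ordered by their mean in the elongation zone, with LN libraries in red shades and HN libraries in blue shades, darker for the elongation zone. Dashed lines mark the thresholds of 0.5 and 5 FPKM, and XLOC_019263, XLOC_036349 (GRMZM5G873870) and XLOC_019224 were at 0 in all 4 division libraries.

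XLOC_019263 had the highest mean, 115 FPKM, and uneven values between replicates. This locus without a gene identifier spans only 209 bp on chromosome 3, from 102709644 to 102709852. It had 56.3 and 106 FPKM in the LN elongation libraries, 73.7 and 225 FPKM in the HN elongation libraries, and 0 in all 4 division libraries. The LN values lay on both sides of the lower HN value, so the supplies overlapped.

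GRMZM2G077015 followed, on chromosome 3 from 136606240 to 136609821. It had 86.0 and 103 FPKM in the LN elongation and 47.0 and 33.5 FPKM in the HN elongation libraries, with 0.0503 and 0.0262 FPKM in the LN division and 0.375 and 0.488 FPKM in the HN division libraries. Both LN libraries thus lay above both HN libraries in the elongation zone, and below both in the division zone.

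GRMZM2G417107 (LOC100275319), on chromosome 7 from 102787388 to 102788021, had 58.9 and 86.1 FPKM in the LN elongation and 25.8 and 38.3 FPKM in the HN elongation libraries. Its division values were 0 in both LN libraries, and 0.305 and 0.276 FPKM in the HN libraries. The order of the supplies was again opposite in the 2 zones, with no overlap in either.

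The supplies overlapped at several other members with a RefSeq symbol, and 3 of these are given here. GRMZM5G888797 (LOC100276913) had 19.1 and 22.02 FPKM in the LN elongation and 16.8 and 31.2 FPKM in the HN elongation libraries, and its span overlaps XLOC_027923 (GRMZM5G868908), which had 6.36 to 8.24 FPKM in the division libraries. GRMZM2G048549 (LOC100191836) had 10.3 and 11.7 FPKM in the LN elongation and 11.1 and 12.1 FPKM in the HN elongation libraries. GRMZM2G138756 (LOC100281400) had 10.1 and 14.2 FPKM in the LN elongation and 10.1 and 7.49 FPKM in the HN elongation libraries.

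The comparison of supplies within the elongation zone is the contrast that the rule did not use, since the rule set only a common floor there. Under low nitrogen 5 of the 38 loci rose and 0 fell in this zone. The rises ran from 1.62-fold to 5.16-fold as ratios of mean FPKM. The test was limma on log2(FPKM + 1), with Benjamini-Hochberg adjustment over all 24706 loci tested and a threshold of 0.05. All 38 had passed the filter on low values. The SE drew on a spread shared by the 4 groups. Division values of the 38, below 0.5 FPKM by the rule, entered that spread on a scale that compresses them. Of all loci tested 22.4% were called, 9.86% higher and 12.5% lower at LN. Among the other loci at the same elongation floor 25.6% were called, 7.69% higher and 18% lower, and the 38 had 13.2% higher. The share called higher was therefore near the background. At an unadjusted limma p under 0.05 there were 10 of the 38, and 1 of these was below 0. The counts were 9879 of the 24706 loci tested and 5161 of the 12262 other loci at the floor.

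GRMZM2G047124 (LOC100381914), on chromosome 1 from 218338024 to 218338759, rose most. It had 34.7 and 63.2 FPKM in the LN elongation libraries, against 5.22 and 13.8 FPKM in the HN elongation libraries. The difference of log2(FPKM + 1) was 2.32 ± 0.45 (SE, limma adjusted p = 0.0162), and the libraries of the supplies did not overlap.

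GRMZM2G477340 (LOC100191625), on chromosome 8 from 65803599 to 65809893, had the smallest SE of the 5. It had 24.0 and 23.1 FPKM in the LN elongation and 7.09 and 5.73 FPKM in the HN elongation libraries, a log2 difference of 1.73 ± 0.16 (SE, limma adjusted p = 0.00375). Its division values overlapped between the supplies, at 0.427 and 0.274 FPKM in LN and 0.310 and 0.386 FPKM in HN.

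GRMZM2G077015 and GRMZM2G417107, described above as the highest loci with an identifier, rose by similar amounts. Their log2 differences were 1.22 ± 0.19 and 1.15 ± 0.24 (SE, limma adjusted p = 0.00966 and 0.0210). GRMZM2G068436 (LOC100284524), on chromosome 6 from 140106833 to 140120496, had 30.3 and 39.3 FPKM in the LN elongation and 23.1 and 19.9 FPKM in the HN elongation libraries. Its log2 difference was 0.66 ± 0.17 (SE, limma adjusted p = 0.0384). Its span overlaps XLOC_031858 (GRMZM2G068323), which had 24.3 and 23.2 FPKM in the LN elongation and 18.8 and 21.9 FPKM in the HN elongation libraries.

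Most of these calls, like most calls over all loci tested, needed both LN elongation libraries. GRMZM2G477340 was still called without LN elongation replicate 1 and without replicate 2 (limma adjusted p = 0.0368 and 0.0299), and the other 4 were not. Their log2 differences without replicate 1 and without replicate 2 were 2.74 and 1.90 for GRMZM2G047124, 1.35 and 1.10 for GRMZM2G077015, 1.43 and 0.88 for GRMZM2G417107, and 0.85 and 0.48 for GRMZM2G068436. With only the elongation groups fitted 0 of the 38 were called, against 42 of the 23141 loci tested (0.181%). The SE of each of the 5 loci was then larger, such as 0.26 instead of 0.19 for GRMZM2G077015 and 0.22 instead of 0.17 for GRMZM2G068436. GRMZM2G068436 was also not called without HN elongation replicate 2 or with any 1 division library left out. Scaling all libraries to equal totals gave 16 rises and 0 falls among the 38, but moved the median log2 difference of all loci from 0.07 to 0.43. With this scaling 6736 of the 24928 loci tested were called higher, and 3487 of the 12262 other loci at the floor.

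**Figure D2:**
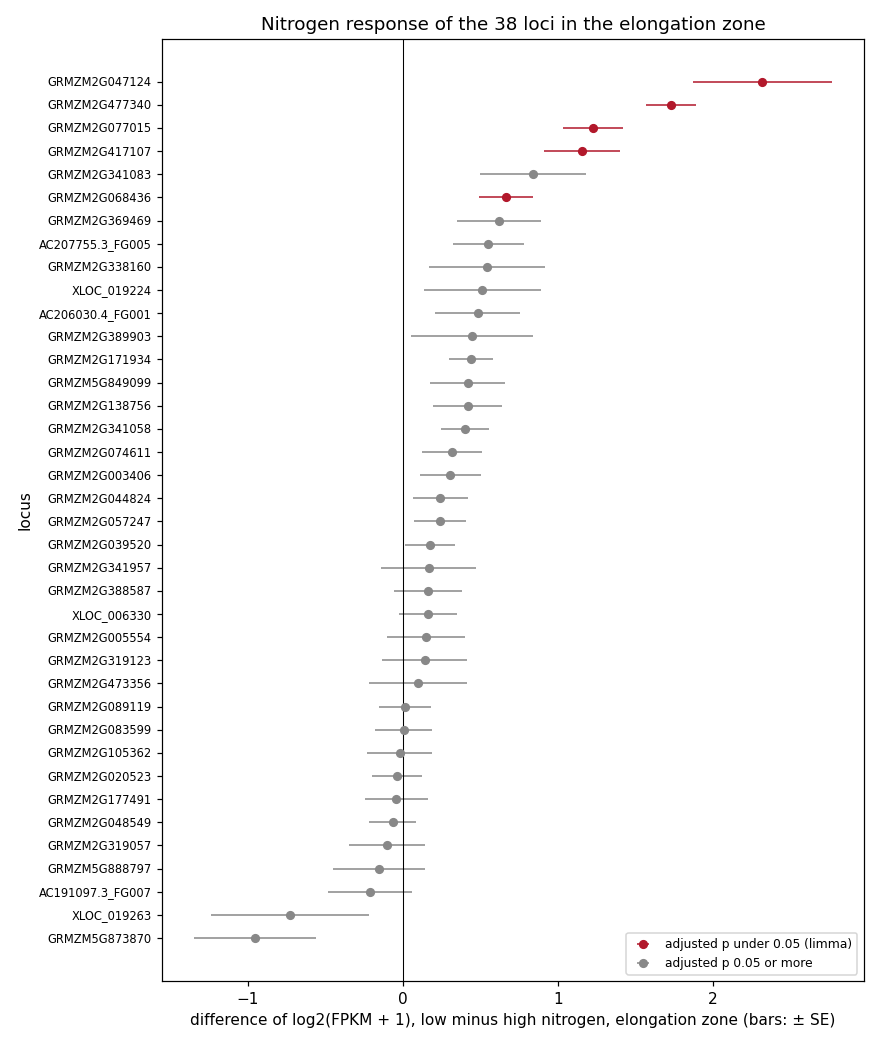
Difference of log2(FPKM + 1) between the LN and HN elongation libraries for each of the 38 loci (points) with its SE (bars), with the 5 loci at a limma adjusted p under 0.05 in red. The differences run from -0.95 for GRMZM5G873870 to 2.32 for GRMZM2G047124, and 29 of the 38 lie above 0.

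The other 33 loci had LN to HN ratios of mean FPKM between 0.452 and 1.84 in the elongation zone. PLTZ11, on chromosome 1 from 204103936 to 204106139, had 8.56 and 8.76 FPKM in the LN elongation and 6.05 and 6.19 FPKM in the HN elongation libraries, a log2 difference of 0.44 ± 0.14 (SE, limma adjusted p = 0.0673). Its libraries did not overlap, but the difference did not pass the threshold.

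GRMZM5G873870 (XLOC_036349) had the most negative difference. It had 6.95 and 10.5 FPKM in the LN elongation and 27.6 and 11.01 FPKM in the HN elongation libraries, a log2 difference of -0.95 ± 0.39 (SE, limma adjusted p = 0.120). Without HN elongation replicate 2 its difference was -1.58 and passed the threshold. It was the only 1 of the 38 (2.63%) with both LN libraries below both HN libraries, against 28.8% of all loci tested and 37.1% of the other loci at the same floor. The opposite order, both LN libraries above both HN libraries, held for 16 of the 38 (42.1%), against 35.6% and 28.9%. XLOC_038187, the other locus of GRMZM5G873870 and outside the 38, also had this opposite order. Its values were 3.30 and 3.17 FPKM in the LN elongation and 2.60 and 1.31 FPKM in the HN elongation libraries.

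The median log2 difference in the elongation zone was 0.24 for the 38, 0.07 for all loci tested and -0.07 for the other loci at the floor, and 76.3% of the 38 lay above 0, against 45.8% of the other loci at the floor.

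Replicate spread touches these counts. HN elongation replicate 2 was above replicate 1 at 27 of the 38 loci (71.1%), against 64.8% of the other loci at the floor, with a median ratio of 1.29 and a ratio above 2 at 6 loci. Without HN elongation replicate 2, the median log2 difference was 0.41 for the 38, 0.10 for all loci tested and 0.03 for the other loci at the floor. Without HN elongation replicate 1, these medians were 0.11, 0.004 and -0.19. Marker lists also differed between the supplies in this zone. The summed level of the 6 lengthening markers was 1001 and 972 FPKM in the LN elongation and 602 and 944 FPKM in the HN elongation libraries. Of these 6 markers, 2 were higher and 0 lower in both LN libraries, and the others overlapped. The summed level of the 5 mature blade loci was 283 and 170 FPKM in the LN elongation and 1131 and 1545 FPKM in the HN elongation libraries, and all 5 were lower in both LN libraries. Of the 9 vessel loci, 8 were higher in both LN elongation libraries, with sums of 103 and 115 FPKM in LN and 92.6 and 120 FPKM in HN. The 6 dividing markers summed to 99.8 and 91.0 FPKM in the LN elongation and 357 and 677 FPKM in the HN elongation libraries, with 4 lower and 2 higher in both LN libraries. The part of replicate spread and of these markers in the result was not tested.

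Below the threshold of the rule, the division zone still listed small values, which were lower at low nitrogen at most of the 38 loci. The median over the 38 loci was 0.0574 and 0.0757 FPKM in the LN division libraries and 0.266 and 0.233 FPKM in the HN division libraries. A value of 0 was listed for 12 and 14 of the loci in the LN and for 6 and 5 in the HN division libraries. XLOC_019263, XLOC_036349 and XLOC_019224 were at 0 in all 4. On log2(FPKM + 1), limma called 0 of the 38 for LN against HN in the division zone at an adjusted p under 0.05, against 5.09% of all loci tested. It had 4 of the 38 at an unadjusted p under 0.05, against 23.4% of all loci tested. All values are under 0.5 FPKM by the rule, where this scale compresses differences, so the following counts are descriptions. Read numbers were not used here, and a listed 0 does not show absence of the transcript.

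**Figure D3:**
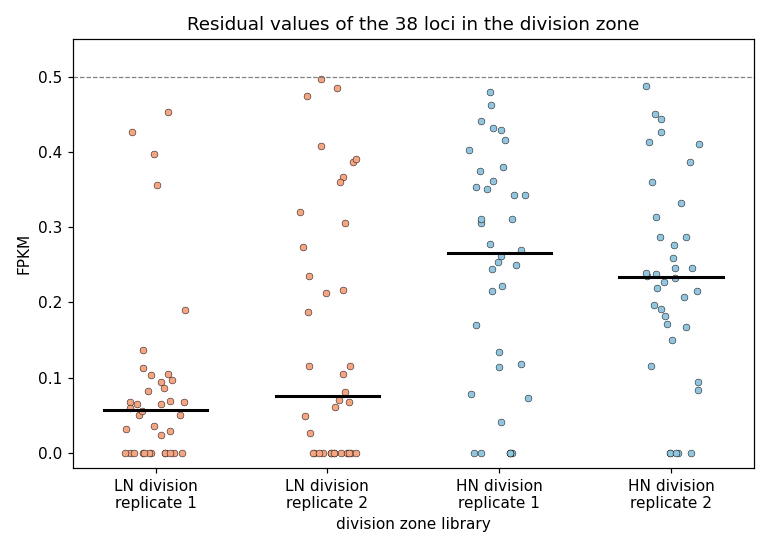
FPKM of the 38 loci in each division zone library (points, spread sideways at random), with the median of each library as a bar and the rule's limit of 0.5 FPKM as a dashed line. The medians are 0.0574 and 0.0757 FPKM in the LN and 0.266 and 0.233 FPKM in the HN libraries.

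Of the 35 loci detected in some division library, 28 (80.0%) had the lower mean at LN, against 51.7% of the 6143 other loci that were detected in the division zone and stayed below 0.5 FPKM in its 4 libraries. Both LN libraries lay below both HN libraries at 21 of the 35 (60%) and above them at 3 (8.57%). Among the 6143 other loci the shares were 18.1% below and 15% above. Of those, 471 had an elongation mean of at least 1 FPKM: 66.7% had the lower mean at LN, and without overlap 38.4% were below and 11.9% above. Loci with some expression in the elongation zone thus showed this order more often in their listed values, and the 38 more often still, as a description without a test. These sets also differed in level. The mean values in the HN division libraries were 0.263 and 0.251 FPKM for the 35. They were 0.182 and 0.193 FPKM for the 471, and 0.0921 and 0.0971 FPKM for the 6143. In the LN division libraries the means were 0.0946 and 0.166, 0.145 and 0.152, and 0.0981 and 0.0978 FPKM, in the same order. The part of level in these shares was not tested.

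PLTZ11 is an example of lower values at LN, with 0.0324 and 0.0673 FPKM in the LN division and 0.403 and 0.443 FPKM in the HN division libraries. GRMZM2G020523 (LOC100272496), which has the longest span of the 38, was listed at 0 in both LN division libraries, against 0.216 and 0.412 FPKM in the HN division libraries. Its elongation values were close together, at 7.02 and 6.53 FPKM in LN and 7.38 and 6.63 FPKM in HN. Going the other way, GRMZM2G083599 (LOC100272735) had 0.398 and 0.386 FPKM in the LN division and 0.2496 and 0.182 FPKM in the HN division libraries.

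The lengthening and mature blade markers, which were higher in every elongation library, moved in the same direction. All 6 lengthening markers were lower in both LN division libraries than in both HN division libraries, with sums of 15.8 and 16.9 FPKM in LN and 25.9 and 29.5 FPKM in HN. All 5 mature blade loci were lower too, with sums of 23.2 and 30.9 FPKM in LN and 76.6 and 77.1 FPKM in HN. Of the 9 vessel loci 8 were lower in both LN division libraries. The vessel list summed to 53.8 and 68.3 FPKM in LN and 115 and 96.6 FPKM in HN. Only 4 of these 9 were higher in every elongation library, so this list does not mark tissue above the division zone alone. No marker of these lists was higher in both LN division libraries. Their part in the residual signal of the 38 was not tested.

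At 10 of the 38 loci (26.3%) LN lay above HN in the elongation zone and below HN in the division zone, both without overlap. The share was 6.21% of the other loci at the elongation floor, and 14.2% of the 471 loci that stayed below 0.5 FPKM in the division zone with an elongation mean of at least 1 FPKM. A fit of the difference between the zones in the nitrogen response, added after the data were seen, called 0 of the 38 (limma, adjusted p under 0.05), against 0.283% of all loci tested. At an unadjusted p under 0.05 it had 10 of the 38 (26.3%), against 18.0% of all loci tested. Since the rule keeps the division values below 0.5 FPKM, it limits how far this difference can depart from the elongation response. Both are 1.73 on the log2 scale for GRMZM2G477340, but they are 0.88 and 0.44 for PLTZ11. The median over the 38 was 0.43 for the difference between zones and 0.24 for the elongation response. Nothing further is read from this fit.

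Loosening the rule to at least 2 FPKM in the elongation and below 1 FPKM in the division libraries gave 293 loci, 255 of them beyond the 38, and brought in 19 more loci with an informative name. Under low nitrogen in the elongation zone 6 of the 19 rose, 0 fell and 13 were not called. Of all loci tested 9.86% rose and 12.5% fell, and of the 255 loci 15.7% rose and 5.10% fell. The highest of the 19 were TIP2-1, a tonoplast aquaporin, and MYB61, of the MYB family of transcription factors. Both were kept out of the 38 by HN division values alone. TIP2-1 had 103 and 90.3 FPKM in the LN elongation and 47.5 and 105 FPKM in the HN elongation libraries, with 0.0858 and 0.267 FPKM in the LN division and 0.856 and 0.588 FPKM in the HN division libraries. MYB61 had 60.7 and 72.4 FPKM in the LN elongation and 43.1 and 60.9 FPKM in the HN elongation libraries, with 0 and 0.0878 FPKM in the LN division and 0.738 and 0.338 FPKM in the HN division libraries.

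The 6 named loci that rose were CER1, of a family that makes wax alkanes, MGL3, KNOX1, of the knotted-like homeobox family, ZRP4, an O-methyltransferase, Ann8, of the calcium-binding annexins, and NAC63, of the NAC transcription factors. KNOX1 had 18.6 and 21.0 FPKM in the LN elongation and 9.27 and 7.71 FPKM in the HN elongation libraries, a log2 difference of 1.13 ± 0.16 (SE, limma adjusted p = 0.00793). ZRP4 had 6.92 and 7.61 FPKM in the LN elongation and 3.35 and 3.43 FPKM in the HN elongation libraries, a log2 difference of 0.91 ± 0.15 (SE, limma adjusted p = 0.0116). Neither overlapped between the supplies in this zone. In the division zone both were lower in both LN libraries, with 0.163 and 0.282 FPKM in LN and 0.945 and 0.774 FPKM in HN for KNOX1, and 0 and 0.0824 FPKM in LN and 0.148 and 0.181 FPKM in HN for ZRP4.

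Over the 255 loci added by the looser rule, low nitrogen raised 40 (15.7%) and lowered 13 (5.10%) in the elongation zone, against 9.86% and 12.5% of all loci tested, with a median log2 difference of 0.22. In the division zone 251 of them were detected, and LN had the lower mean at 189 (75.3%), with LN below HN without overlap at 112 (44.6%) and above at 25 (9.96%), against 38.4% and 11.9% of the 471 loci above, some of which are the same loci.

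**Figure D4:**
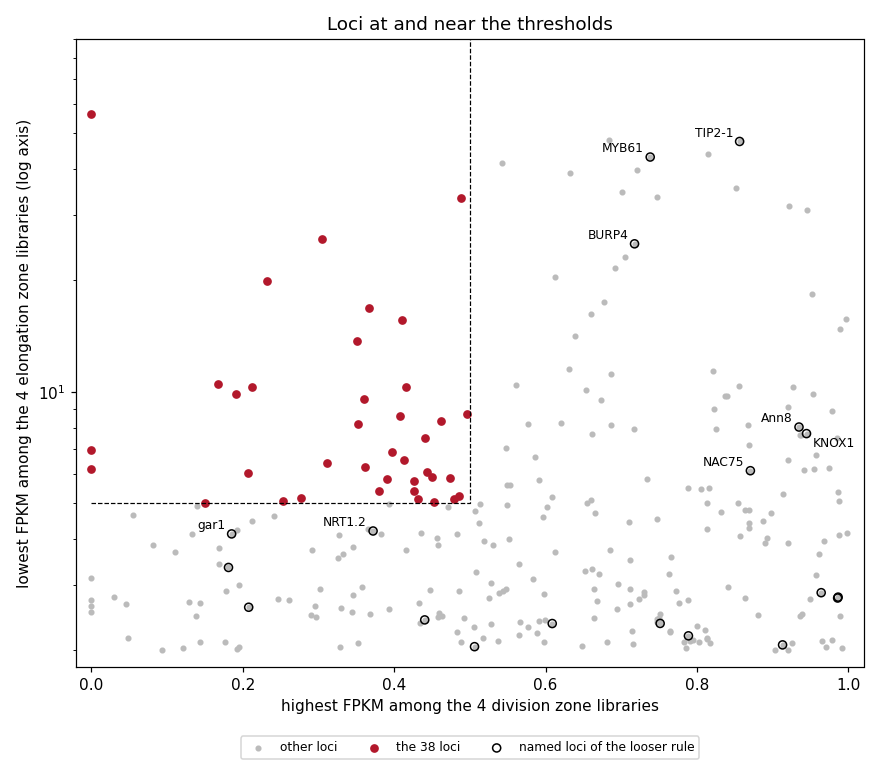
Each point is a locus of the looser rule, with its highest division zone FPKM on the horizontal axis and its lowest elongation zone FPKM on the vertical log axis. The 38 loci (red) lie inside the dashed thresholds of 0.5 and 5 FPKM, and circled loci carry an informative name, with TIP2-1 and MYB61 the highest of them, at lowest elongation values of 47.5 and 43.1 FPKM.

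The 10 loci of the mirror rule were tested in the division zone, where they are expressed: 3 rose under low nitrogen and 0 fell. Of all loci tested 5.09% were called there, and 1.81% were higher. The largest rise was at GRMZM2G008234 (XLOC_032644), with 27.5 and 37.0 FPKM in the LN division and 7.11 and 6.18 FPKM in the HN division libraries (2.11 ± 0.19 SE on the log2 scale, limma adjusted p = 0.00520). A difference between the 38 and these 10 loci was not tested.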

How the data were processed

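The deposited table holds values of each assembled locus in 8 libraries, 2 in each of 4 groups taken from the sample titles. The values were read as FPKM, judged from the deposited values because no header or label states the unit: they are not whole numbers and column totals differ. TopHat2, edgeR and the build B73 RefGen_v3 are named in the submitters' processing notes. For versions, normalisation, strand handling and read numbers the answer is not given in the sources used here, so depth is unknown. The 44070 lines hold 43110 loci, and positions are the table's, written from base 1. Names came from a RefSeq table (Zm-B73-REFERENCE-NAM-5.0), matched by identifier, with no coordinates taken from it.

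Loci whose mean reached 1 FPKM in 1 or more groups were fitted with limma 3.58.1 in R 4.3.3 on log2(FPKM + 1), a scale that understates changes of low loci, with an intensity trend and 4 group means (4 residual degrees of freedom). The plan held a quasi-likelihood test for read counts, and limma was its stated fallback for FPKM. P values were Benjamini-Hochberg adjusted over all loci tested, with a threshold of 0.05. The procedure was tested on simulated data that gave each locus the same spread in all 4 groups. The measured groups differed in spread, so that test cannot vouch for the comparison of supplies in the elongation zone. The elongation against division contrast was not tested, since the rule used it.

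The members and lists were chosen with earlier results of these data known. Named by rule were the highest members with a RefSeq symbol or name, called members without overlap, and loci next to each threshold. XLOC_019263, GRMZM2G077015, GRMZM5G873870, PLTZ11, GRMZM2G020523, GRMZM2G083599, the loci named under the looser rule and the marker check by supply were singled out after their values were seen. As alternatives, the comparisons were repeated with a pseudocount of 0.1, other filters, scalings and thresholds of the rule, a replicate block, a fit of the elongation groups alone, a minimum log2 change of 1 and each library left out in turn.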

Additional observations from a re-analysis of the deposited data

How the results depend on the processing

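With 2 libraries per group, counts of called loci moved widely. The direction of the 7 loci followed through 16 alternatives never turned, but much of this was fixed in advance. Their LN and HN elongation libraries did not overlap, so leaving out a library could not turn it. Other filters, a replicate block, a minimum log2 change and a fit of the elongation groups alone left the differences themselves unchanged. Scaling to equal totals called 16 of the 38, 8682 of all loci and 4905 of the other loci at the elongation floor, and the share of called loci that were higher became 77.6% instead of 44.1% (for the 38, 100% in both). Fitting the elongation groups alone called 0, 42 and 7, and a minimum log2 change of 1 called 0, 56 and 12, in the same order. Leaving out 1 library gave 1 to 10 of the 38, 516 to 10197 of all loci and 199 to 5487 of the other loci at the floor. The cause of these moves was not tested, except that fewer samples enter in the smaller fits. GRMZM2G477340 was called in 14 of the 16 alternatives, GRMZM2G047124, GRMZM2G077015 and GRMZM2G417107 in 12 each, GRMZM2G068436 in 4, PLTZ11 in 2 and GRMZM5G873870 in 1. For the difference between zones, a pseudocount of 0.1 called 2 of the 38, equal totals 1, and leaving out 1 library 0 to 4.

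The set itself held 4 loci at 10 and 0.25 FPKM, 293 at 2 and 1 FPKM, 21 after scaling to equal totals, and 38 to 64 with 1 library left out, the highest without HN division replicate 2.

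The labels do not say whether a replicate number marks a shared plant or batch. Deviations of same-numbered libraries correlated between -0.19 and 0.329, which cannot settle this with 2 libraries per group. With a replicate block, limma called 4 of the 38, without GRMZM2G068436 (adjusted p = 0.0616), 4245 of all loci, 2437 of the other loci at the floor, and 0 of the 38 for the difference between zones.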

Other observations

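The nearest tested loci on either side of the 38 were mostly unlike them. Of 74 such neighbours outside the set, 11 (14.9%) were higher in the elongation zone by more than 1 on the log2 scale, against 16.4% of all loci tested. The median gap to the neighbour was 51406.5 bp. An exception, picked out after its values were seen, was GRMZM2G076946 (XLOC_017917), 11630 bp from GRMZM2G077015 on chromosome 3, from 136590830 to 136594609. It had 155 and 180 FPKM in the LN elongation and 76.5 and 43.9 FPKM in the HN elongation libraries, with 0.0811 and 0.0281 FPKM in the LN division and 0.475 and 0.814 FPKM in the HN division libraries. It missed the rule through HN division replicate 2 alone. Its rise under low nitrogen in the elongation zone was 1.51 ± 0.26 on the log2 scale (SE, limma adjusted p = 0.0125), beside 1.22 ± 0.19 for GRMZM2G077015. The sources used here do not say whether the assembly split 1 transcript or whether the loci are separate genes.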
